A study of Mus musculus with 4 samples.

Results

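The genes described here encode the proteins that license origins of DNA replication, unwind the duplex and copy it at the fork. They are 43 named genes, taken by symbol from the origin recognition complex, the licensing factors, the helicase, the polymerases, the single-strand binding protein, the clamp and its loader, and the enzymes that finish lagging-strand fragments. All 43 were found among the 22739 named genes of the deposited tables, in 44 rows, since Pole3 had 2 rows that were summed. The source of RNA was the line CCE, embryonic stem (ES) cells from mice of strain 129SV, grown on gelatin in 15% serum with leukemia inhibitory factor. The shTex10 cells were treated with a short hairpin RNA that depletes Tex10 (2 libraries), and the shLuci control cells with one against luciferase, an insect gene that mice lack (2 libraries). Both groups therefore carried a hairpin, and the samples hold 1 hairpin label per gene, with no rescue. The design text calls the libraries biological replicates without naming the cultures they came from, and p-values here reflect only the spread among the 4 libraries, which may be technical. Values are FPKM, fragment counts scaled by the authors to transcript length and library size. FPKM is divided by length, so levels of different genes can be compared.

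Replication begins when the origin recognition complex (ORC) and CDC6 load rings of MCM2 to MCM7 onto DNA with the help of CDT1, a step that geminin blocks outside its window by binding CDT1. CDC45 and the GINS proteins then join the ring to form the CMG helicase, polymerase alpha with primase lays primers, and polymerases epsilon and delta extend them on the leading and lagging strand while held by the PCNA clamp. ES cells have a short G1 phase and spend much of their cycle in S phase, and many of these genes are known targets of E2F factors, which act at the G1 to S transition.

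The RefSeq promoters of members are shown first for 6 genes, because they differ in the letters searched for and their transcripts differ in the test. Each runs from 250 bases before to 50 bases after a transcription start in GRCm38.p6, a later build than the mm9 of the deposited tables. Mcm5 lies at chr8:75109259-75109558 on the plus strand, Mcm6 lies at chr1:128359656-128359955 on the minus strand, Cdc6 lies at chr11:98907901-98908200 on the plus strand, Pcna at chr2:132253131-132253430 on the minus strand, Orc1 at chr4:108579204-108579503 on the plus strand, Rpa3 at chr6:8259092-8259391 on the minus strand. The sequences read from 5′ to 3′ on the gene's strand. Capitals mark E2F-like letters, defined as TTGGCGC or TTCCCGC or TTCGCGC or TTGCCGC on either strand, and where such matches overlap the capitals run together.
Mcm5: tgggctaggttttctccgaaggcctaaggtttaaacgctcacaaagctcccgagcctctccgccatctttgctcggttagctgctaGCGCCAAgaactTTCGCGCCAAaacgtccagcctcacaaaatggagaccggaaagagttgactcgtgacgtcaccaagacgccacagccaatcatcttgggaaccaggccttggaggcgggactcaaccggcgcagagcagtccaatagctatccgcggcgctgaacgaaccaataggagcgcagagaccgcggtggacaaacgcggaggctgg
Mcm6: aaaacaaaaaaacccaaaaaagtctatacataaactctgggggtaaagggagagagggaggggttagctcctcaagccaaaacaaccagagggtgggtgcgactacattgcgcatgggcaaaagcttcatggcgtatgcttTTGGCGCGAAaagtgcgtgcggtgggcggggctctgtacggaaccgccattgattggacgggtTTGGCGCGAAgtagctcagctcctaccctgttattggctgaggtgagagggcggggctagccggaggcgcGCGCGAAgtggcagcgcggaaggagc
Cdc6: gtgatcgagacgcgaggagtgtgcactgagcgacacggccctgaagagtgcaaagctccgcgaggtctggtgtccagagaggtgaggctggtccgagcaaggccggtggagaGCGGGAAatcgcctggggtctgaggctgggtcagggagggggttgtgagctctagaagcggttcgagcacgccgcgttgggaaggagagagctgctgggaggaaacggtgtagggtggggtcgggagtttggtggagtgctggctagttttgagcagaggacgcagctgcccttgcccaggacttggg
Pcna: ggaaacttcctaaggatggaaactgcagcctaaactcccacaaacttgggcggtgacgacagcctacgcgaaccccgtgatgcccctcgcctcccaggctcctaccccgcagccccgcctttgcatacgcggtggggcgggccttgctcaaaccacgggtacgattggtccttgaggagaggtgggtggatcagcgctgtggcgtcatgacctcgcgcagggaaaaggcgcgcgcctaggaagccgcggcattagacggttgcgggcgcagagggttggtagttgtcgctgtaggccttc
Orc1: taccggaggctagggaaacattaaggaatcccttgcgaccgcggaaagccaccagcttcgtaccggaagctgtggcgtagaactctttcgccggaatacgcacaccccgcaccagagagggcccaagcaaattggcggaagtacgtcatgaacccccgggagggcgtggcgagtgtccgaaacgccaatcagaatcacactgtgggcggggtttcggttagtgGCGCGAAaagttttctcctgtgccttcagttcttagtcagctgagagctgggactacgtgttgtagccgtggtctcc
Rpa3: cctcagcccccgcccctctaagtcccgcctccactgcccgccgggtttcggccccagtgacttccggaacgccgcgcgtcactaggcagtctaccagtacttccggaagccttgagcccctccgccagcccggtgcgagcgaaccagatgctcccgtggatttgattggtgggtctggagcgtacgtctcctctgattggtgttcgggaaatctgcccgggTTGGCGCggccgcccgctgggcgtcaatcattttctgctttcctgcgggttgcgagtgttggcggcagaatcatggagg
The Mcm6 promoter held 5 matches, which fall in 3 runs because matches on opposite strands overlap, and the Mcm5 promoter held 3 matches in 2 runs. The Cdc6, Orc1 and Rpa3 promoters held 1 each, and the Pcna promoter held 0. Mcm5, Mcm6, Cdc6 and Pcna fell in shTex10, whereas Orc1 and Rpa3 did not pass the test, as given below with their values.

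The table of promoters matched 35 of the 43 members, with 44 promoters, and had no entry for Mcm4, Gins1, Gins2, Gins4, Gmnn, Pole, Prim2 and Rfc2. E2F-like letters were in at least 1 promoter of 24 of the 35 members (68.6%), against 20.5% of the 8652 tested genes with a promoter. Counted by promoter, they were in 27 of 44 (61.4%), against 9.57% of all 32851 promoters of that length. Split by the test, they were in 16 of the 26 members with a promoter that fell, and in 8 of the 9 that did not pass, with Orc6 as the exception. CCAAT, read on both strands, was in 21 of the 35 members (60.0%), against 43.7% of tested genes. TTTGAA or TTCGAA, the letters of the CHR element, were in 7 of 35 (20.0%), against 16.0% of tested genes. Counted by promoter, CCAAT was in 23 of 44 (52.3%), against 37.4% of all promoters. The CHR letters were in 7 of 44 (15.9%), below the 19.2% of all promoters. CCAAT shared bases with E2F-like letters in 3 of the members' promoters, and the CHR letters in 0. Such matches describe these windows and do not show that a factor binds there.

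The targeted transcript was read first. Tex10 measured 11.6 and 13.4 FPKM in the shTex10 libraries, against 77.3 and 82.1 FPKM in the shLuci libraries, and its log2 change was -2.58 (SE 0.10, adjusted p = 0.000143, limma). All log2 changes are shTex10 minus shLuci on log2(FPKM + 1). The ES cell markers Pou5f1, Sox2, Nanog, Zfp42, Sall4 and Utf1 summed to 1535 and 1452 FPKM in shTex10 and to 2342 and 2205 FPKM in shLuci, and 4 of 6 fell, so the cell type of the labels was present in each library. Markers of other cell types were also detected, with 0 of any list at 0 in all libraries, and their levels varied widely. Col1a1 reached 30.1 FPKM in shTex10 replicate 1 and Krt7 22.8 FPKM in shTex10 replicate 2. The median of all genes tested lay between 11.0 and 11.7 FPKM in each library. Lum was at 0 in shLuci replicate 2 and Elf5 in shLuci replicate 1. The 6 trophectoderm markers summed to 50.9 and 49.97 FPKM in shTex10, against 24.3 and 22.8 FPKM in shLuci, and all 4 that were tested rose, with Elf5 under 0.1 FPKM in every library. The 6 primitive endoderm markers summed to 5.30 and 5.72 FPKM in shTex10, against 3.58 and 2.99 FPKM in shLuci. Of these only Dab2 was tested, and it rose, with 3.04 and 3.54 FPKM in shTex10, against 1.19 and 1.38 FPKM in shLuci, while the other 5 stayed under 1 FPKM in every library. Sox7 was among them, with 0.141 and 0.298 FPKM in shTex10, against 0.436 and 0.376 FPKM in shLuci. The 10 fibroblast markers summed to 47.9 and 36.2 FPKM in shTex10 and to 41.2 and 32.5 FPKM in shLuci. Of the 5 tested, Col1a2 fell (log2 change -0.71, SE 0.12) and 4 did not pass, among them Col1a1 at a log2 change of 0.65 (SE 0.23). The part of these cell types in the changes below was not tested.

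Transcripts of the replication machinery were lower in shTex10 across nearly every step of the pathway. Of the 43 genes, 33 fell, 0 rose and 10 did not pass (limma, Benjamini-Hochberg adjusted p under 0.05 over 11883 genes). Over all genes tested, 31.8% fell and 19.8% rose. Among the 8542 genes with a mean of at least 5 FPKM, a filter that all 43 members passed, 36.5% fell and 15.1% rose. All 43 had at least 1 FPKM in every library, so none was lost to the filter on low values. The median log2 change was -0.61, against -0.14 over all genes, a difference of -0.47. Together the 43 transcripts summed to 2271 and 2347 FPKM in shTex10, against 3618 and 3701 FPKM in shLuci. They made up 0.432% and 0.437% of named FPKM in shTex10, against 0.590% and 0.585% in shLuci. Both shTex10 libraries lay below both shLuci libraries for 38 of the 43, as they did for 48.1% of all genes, and above them for 0, against 28.3% of all genes. The other 5 overlapped between groups. In bulk RNA, fewer cells in S phase and less of these transcripts per cell cannot be told apart.

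Most of the falls were by less than 1 on the log2 scale. Of the 43 members, 5 fell by at least that much, namely Gins2, Mcm10, Cdc6, Pola2 and Pcna. This was a larger share than the 3.05% of all genes that fell by that much. Means in shTex10 stood below those in shLuci for 41 of the 43, and 39 lay below the median change of all genes. The share of all genes with a lower mean in shTex10 was not counted, and their median change was itself negative, at -0.14.

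**Figure D1:**
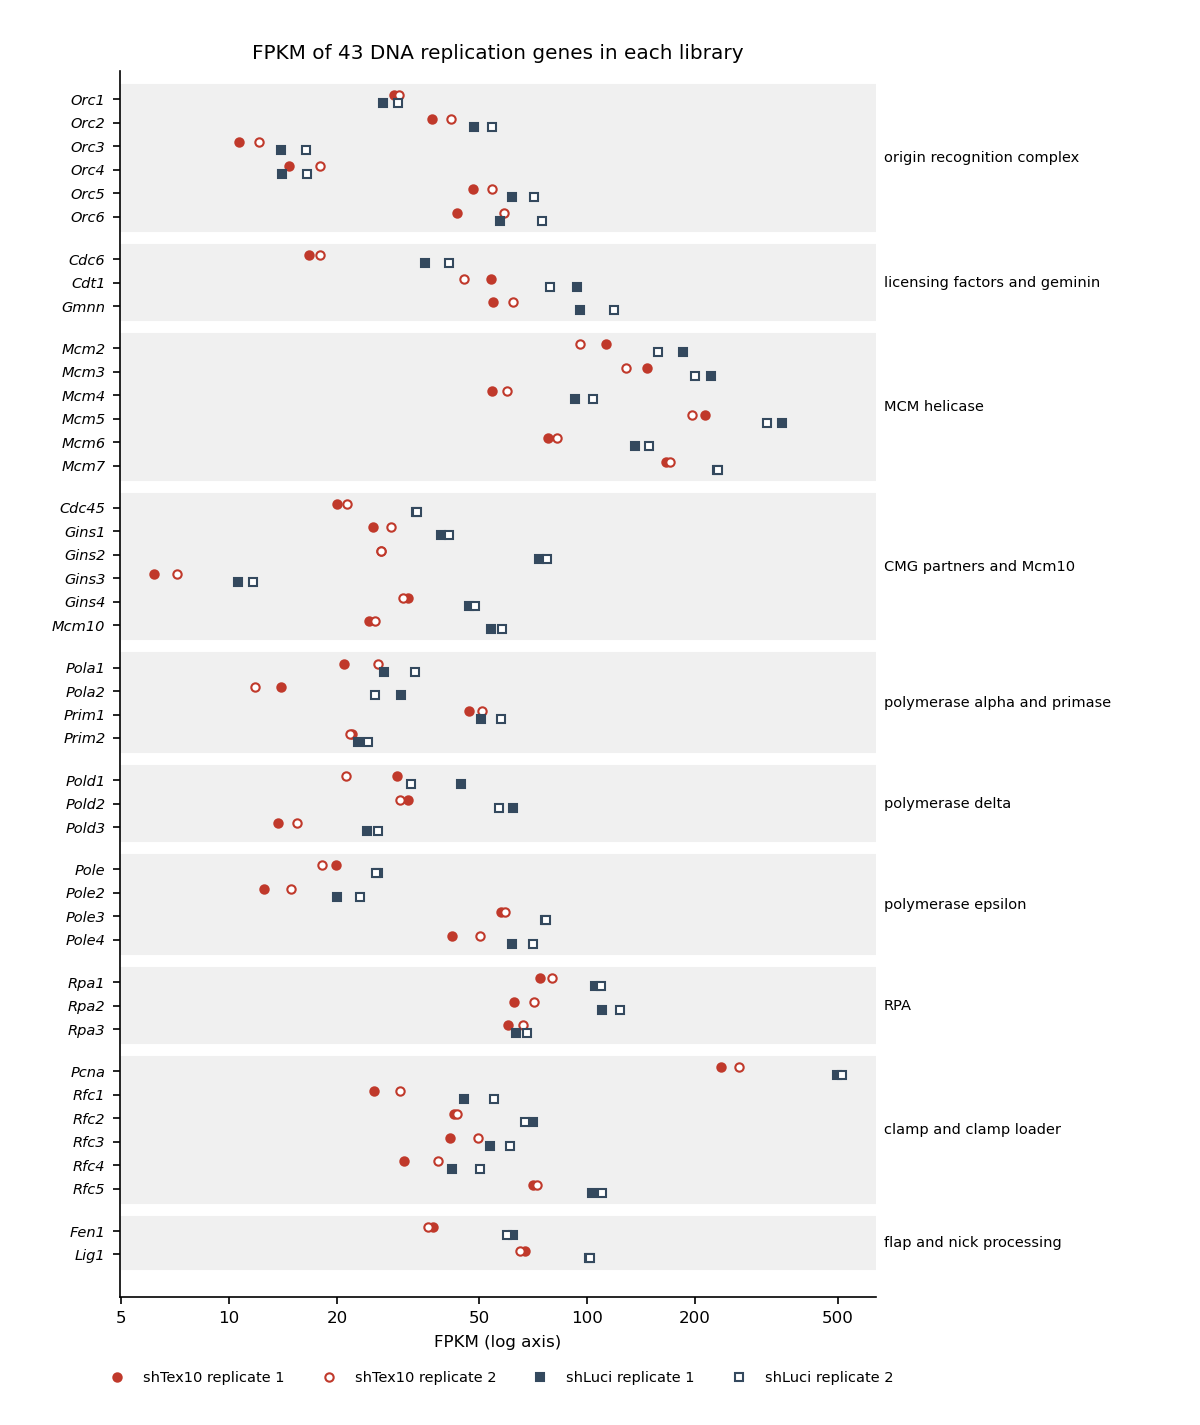
FPKM of each of the 43 genes (log axis) in the 2 shTex10 libraries (red circles) and the 2 shLuci libraries (dark squares), grouped by role, with filled symbols for replicate 1 and open symbols for replicate 2. For 38 genes both red circles lie to the left of both squares; Orc1, Orc4, Orc6, Prim1 and Rpa3 overlap.

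**Figure D2:**
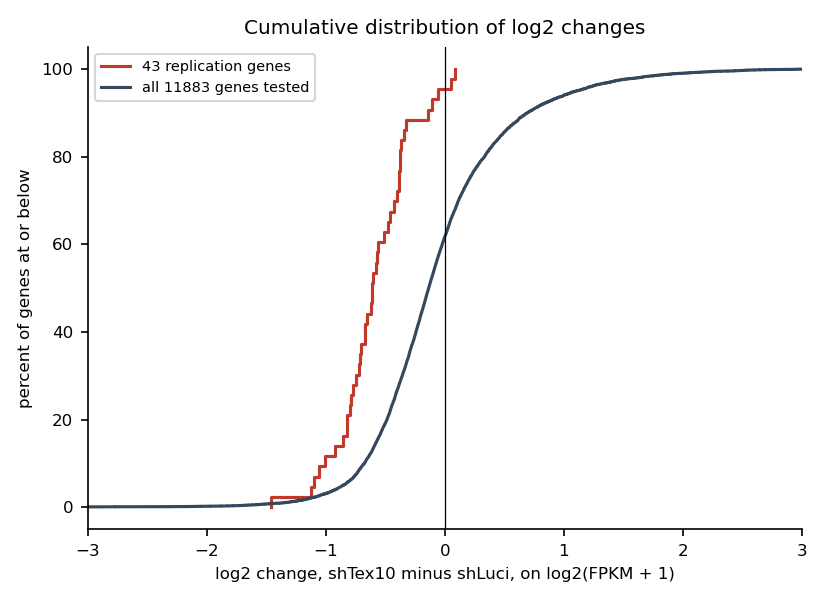
Cumulative percent of genes (vertical axis) against log2 change (horizontal axis, shTex10 minus shLuci) for the 43 replication genes (red) and all 11883 genes tested (dark). The red curve lies to the left, with a median of -0.61 against -0.14, and does not reach the large rises and falls of other genes.

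How many calls stood depended on the scaling of the libraries and on the filter on low values. When the FPKM of named genes were made to sum alike in each library, the median change of all genes moved to 0.06 from -0.14 as deposited. With no filter on low values 23 of the 43 fell, against 10.5% of all genes. Under the scaling over named genes 25 of the 43 fell and 1, Orc1, rose, against 16.0% and 27.2% of all genes, and the members' median lay 0.45 below that of all genes (a difference of -0.45). When the FPKM of all rows, named and unnamed, were made to sum alike, 1 of the 43 fell, against 1.99% of all genes. That call was Gins2. The sums over all rows were 1798452 and 1722506 FPKM in shTex10, against 1403759 and 2224872 FPKM in shLuci. This scaling thus sets the shLuci libraries apart, and the SE of Mcm6 was 0.44 in place of 0.09 while its log2 change was -0.82 both ways. The difference of the medians stayed at -0.47 there. When a library was left out, its group kept 1 library, which was assumed to vary like those of the other group. The SEs of the 43 then lay between 0.167 and 0.176, so they came almost wholly from the spread shared across genes, and calls gained or lost in those fits are no measure of how stable a gene is.

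**Figure D3:**
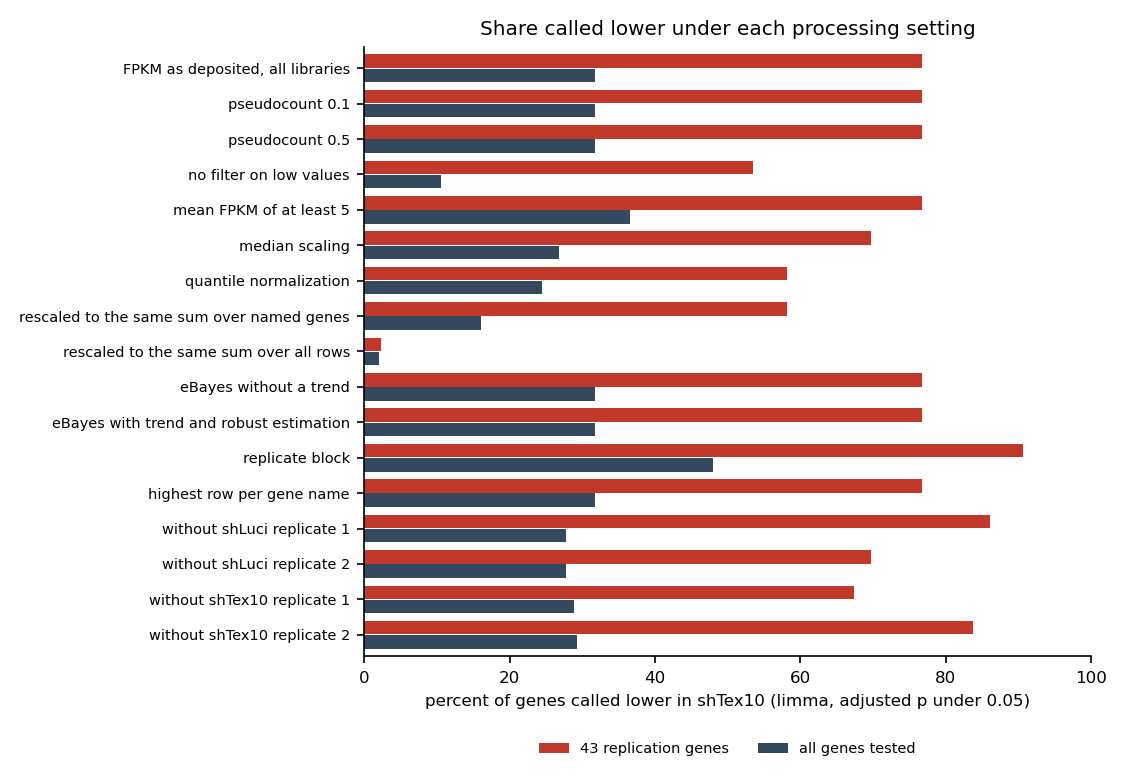
Percent of genes called lower in shTex10 (limma, adjusted p under 0.05) under each processing setting, for the 43 replication genes (red bars) and all genes tested (dark bars). The red share is 76.7% as deposited and is above the dark share in every setting, but both shares are close to 0 (1 of 43 genes, and 1.99%) after rescaling over all rows.

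The origin recognition complex, which marks origins and helps load the helicase, passed the test in part of its genes. Of its 6 genes 3 fell (50%) and 3 did not pass, with a median log2 change of -0.37. Here and for each role below, the share of all genes that fell was 31.8%. Orc1, whose protein is an ATPase of the complex, measured 28.9 and 29.8 FPKM in shTex10 and 26.9 and 29.6 FPKM in shLuci. Orc4 measured 14.6 and 18.0 FPKM in shTex10 and 14.0 and 16.5 FPKM in shLuci. These 2 genes were the only members with a higher mean in shTex10, and for each the groups overlapped. The sign of both turned negative without shLuci replicate 1, and that of Orc4 also without shTex10 replicate 2. Their log2 changes were 0.05 (95% confidence interval -0.18 to 0.28) and 0.09 (-0.25 to 0.42). Orc6 measured 43.3 and 58.6 FPKM in shTex10 and 56.9 and 74.8 FPKM in shLuci, with overlapping groups (log2 change -0.37, interval -0.84 to 0.10). Orc3, the member with the largest fall in the complex, measured 10.6 and 12.1 FPKM in shTex10, against 14.0 and 16.3 FPKM in shLuci (log2 change -0.39, SE 0.12, limma adjusted p = 0.0374). Orc2 and Orc5 changed by a like amount, with log2 changes of -0.37 each. Orc6, which did not pass, changed as much but with a larger SE (0.19, against 0.11 for Orc2 and Orc5).

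The calls of Orc2, Orc3 and Orc5 depended on the processing. Each was lost with no filter on low values, under median scaling, quantile normalization and both rescalings by sums. The log2 change of Orc6 was -0.58 without shTex10 replicate 2 and -0.15 without shTex10 replicate 1. The Orc4 row has a locus on mm9 chromosome 2 (48669628 to 48804787) that also holds Acvr2a, and the Orc3 locus holds Akirin2. Whether reads were assigned by strand is not given in the sources used here.

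All 3 genes of the licensing step fell. Cdc6, the factor that joins ORC to load the helicase, measured 16.7 and 17.9 FPKM in shTex10, against 35.2 and 41.2 FPKM in shLuci, 45.2% of the shLuci mean. Its log2 change was -1.10 (SE 0.11, limma adjusted p = 0.00106). Cdt1, the loading partner of the MCM ring, measured 53.7 and 45.2 FPKM in shTex10, against 93.6 and 78.5 FPKM in shLuci (log2 change -0.79, SE 0.13, adjusted p = 0.00539 from limma). Gmnn, which encodes the CDT1 inhibitor geminin, measured 54.6 and 61.9 FPKM in shTex10, against 95.3 and 118.6 FPKM in shLuci (log2 change -0.86, SE 0.13). For each of the 3 genes both shTex10 libraries lay below both shLuci libraries. The calls of Cdt1 and Gmnn were lost with no filter on low values, and all 3 after the rescaling over all rows.

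The loading factor was also set against its inhibitor. The ratio of Cdt1 to Gmnn FPKM was 0.983 and 0.729 in shTex10, and 0.983 and 0.662 in shLuci. The groups overlapped, and the ratio was the lower one in replicate 2 of each group. No test was made of this ratio.

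Every subunit gene of the MCM helicase, the motor that unwinds DNA, fell. The 6 genes summed to 772 and 732 FPKM in shTex10, against 1215 and 1161 FPKM in shLuci, 63.3% of the shLuci mean. Mcm6 fell most, with 77.6 and 82.4 FPKM in shTex10, against 136 and 148 FPKM in shLuci (log2 change -0.82, SE 0.09, limma adjusted p = 0.00154). Mcm7 fell least, with 165 and 171 FPKM in shTex10, against 229.9 and 232 FPKM in shLuci (log2 change -0.46, SE 0.08, limma adjusted p = 0.00687). The other 4 subunits had log2 changes between -0.77 (Mcm4) and -0.61 (Mcm3).

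The subunits kept the same order of level in all 4 libraries: Mcm5, Mcm7, Mcm3, Mcm2, Mcm6, Mcm4. Mcm5, the highest, measured 214 and 196 FPKM in shTex10, against 351 and 319 FPKM in shLuci. Mcm4, the lowest, measured 54.2 and 59.8 FPKM in shTex10, against 92.3 and 103.7 FPKM in shLuci. The ratio of the highest to the lowest subunit was 3.95 and 3.27 in shTex10 and 3.80 and 3.07 in shLuci, so the groups overlapped. Within each group the libraries of neighbours in this order did not overlap, though no test was made between subunits. The call of Mcm7 was lost under quantile normalization and both rescalings, that of Mcm3 under quantile normalization and with no filter on low values, and that of Mcm2 with no filter. All 6 were lost after the rescaling over all rows. Its locus (mm9 chromosome 5, 138605816 to 138613090) also holds the microRNA genes Mir106b, Mir93 and Mir25.

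The partners that turn the ring into an active helicase included Gins2 and Mcm10, the members with the largest falls. All 6 genes of this group fell, to 51.9% of the shLuci mean when summed. Their median log2 change was -0.66. It was -0.86 for the licensing factors with geminin, -0.75 for polymerase delta and -0.71 for the MCM helicase. Gins2, a subunit of the GINS complex, measured 26.58 and 26.62 FPKM in shTex10, against 73.2 and 77.0 FPKM in shLuci, 35.4% of the shLuci mean (log2 change -1.46, SE 0.08, limma adjusted p = 0.000244). It was the only member still called lower after the rescaling over all rows, where its log2 change was -1.46 (SE 0.44). Its row spans mm9 chromosome 8, 123012765 to 123112975, a stretch that also holds Gse1. Mcm10, which helps to activate the assembled helicase, measured 24.6 and 25.5 FPKM in shTex10, against 54.0 and 57.8 FPKM in shLuci (log2 change -1.13, SE 0.09). Cdc45, the other partner of the ring, measured 20.0 and 21.3 FPKM in shTex10, against 33.1 and 33.6 FPKM in shLuci (log2 change -0.67, SE 0.09).

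The other GINS subunits fell less than Gins2. Gins1, the smallest change, measured 25.1 and 28.3 FPKM in shTex10, against 39.1 and 41.2 FPKM in shLuci (log2 change -0.57, SE 0.10, limma adjusted p = 0.00580). The 95% confidence interval of Gins2 (-1.67 to -1.25) lay apart from those of Gins1 (-0.82 to -0.33), Gins3 (-0.93 to -0.39) and Gins4 (-0.81 to -0.39). The difference between these genes was not tested. The proteins form a complex of 1 copy each, and their transcripts changed place: Gins2 was the highest of the 4 in both shLuci libraries, whereas Gins4 was the highest in both shTex10 libraries, at 31.6 and 30.6 FPKM. Gins3 was the lowest member of all, at 6.18 and 7.16 FPKM in shTex10, against 10.6 and 11.6 FPKM in shLuci.

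**Figure D4:**
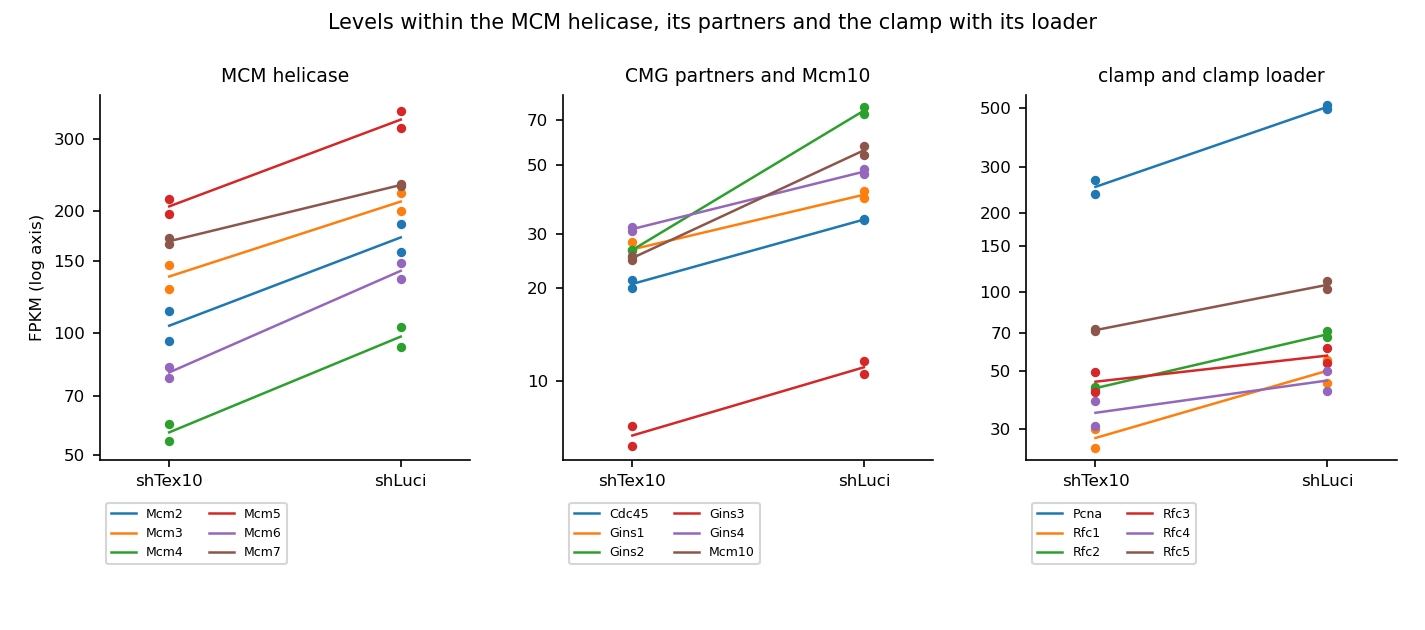
FPKM (log axis) of the MCM helicase genes, of the helicase partners with Mcm10, and of the clamp with its loader in shTex10 (left) and shLuci (right), with a point per library and lines joining the group means. The MCM lines run nearly parallel, while Gins2 and Mcm10 drop more steeply to 26.6 and 25.04 FPKM in shTex10, close to Gins1 and Gins4.

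Polymerase alpha and primase, which start each new strand, did not move as 1 unit. Pola2, the regulatory B subunit, fell to 13.9 and 11.8 FPKM in shTex10, against 30.1 and 25.6 FPKM in shLuci (log2 change -1.06, SE 0.13, limma adjusted p = 0.00180). The other 3 genes did not pass. Pola1, the catalytic subunit on chromosome X, measured 20.9 and 26.1 FPKM in shTex10 and 27.1 and 32.9 FPKM in shLuci (log2 change -0.34, 95% confidence interval -0.70 to 0.02). That change was -0.49 without shTex10 replicate 2 and -0.19 without shTex10 replicate 1. Prim1, the catalytic primase subunit, measured 46.8 and 50.7 FPKM in shTex10 and 50.6 and 57.4 FPKM in shLuci. Its groups overlapped (log2 change -0.14, interval -0.40 to 0.11). Prim2, the large primase subunit, measured 22.0 and 21.8 FPKM in shTex10 and 22.9 and 24.4 FPKM in shLuci (log2 change -0.11, interval -0.32 to 0.11). The signs of Prim1 and Prim2 turned positive under quantile normalization and after rescaling over named genes. The difference between Pola2 and the other 3 genes was not tested.

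Of the 3 members that encode polymerase delta, the lagging-strand enzyme, 2 fell and 1 did not pass. Pold4, the small subunit of the same enzyme, is not among the 43 and rose, with values given below among the replisome genes. Pold2, an accessory subunit, measured 31.7 and 29.9 FPKM in shTex10, against 62.0 and 56.8 FPKM in shLuci (log2 change -0.93, SE 0.09, limma adjusted p = 0.00106). Pold3, another accessory subunit, had a log2 change of -0.75 (SE 0.10). Pold1, the catalytic subunit, measured 29.4 and 21.2 FPKM in shTex10 and 44.4 and 32.1 FPKM in shLuci. It did not pass (log2 change -0.58, SE 0.21, interval -1.09 to -0.06, limma adjusted p = 0.0622), although both shTex10 libraries lay below both shLuci libraries. The log2 change of Pold1 was -0.80 without shTex10 replicate 1 and -0.35 without shTex10 replicate 2. The Pold2 locus also holds Aebp1.

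All 4 genes of polymerase epsilon, the leading-strand enzyme, fell. Pole2, its B subunit, measured 12.5 and 14.9 FPKM in shTex10, against 20.0 and 23.2 FPKM in shLuci (log2 change -0.62, SE 0.13, limma adjusted p = 0.00975). Pole3, a histone-fold subunit, measured 57.5 and 59.1 FPKM in shTex10, against 76.1 and 76.8 FPKM in shLuci (log2 change -0.39, SE 0.08, limma adjusted p = 0.0120). Pole, the catalytic subunit, and Pole4, the histone-fold partner of Pole3, had log2 changes of -0.43 and -0.51. All 4 calls were lost after the rescaling over all rows, and those of Pole, Pole3 and Pole4 also after that over named genes. Those of Pole3 and Pole4 were lost under quantile normalization, and those of Pole2 and Pole4 with no filter on low values. With 1 library left out, the log2 change of Pole lay between -0.49 and -0.37. That of Pole3 lay between -0.41 and -0.37, and that of Pole4 between -0.64 and -0.38. The 2 rows summed for Pole3 share a locus (mm9 chromosome 4, 62181318 to 62209027) with 4933430I17Rik.

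The subunit genes of RPA, which coats single-stranded DNA, did not all pass the test. Rpa2 measured 62.4 and 71.2 FPKM in shTex10, against 110.2 and 123 FPKM in shLuci (log2 change -0.80, SE 0.11, limma adjusted p = 0.00274). Rpa1, the largest subunit, fell as well (log2 change -0.48, SE 0.09), a call that was lost under quantile normalization and both rescalings. Rpa3, the smallest subunit, measured 60.0 and 66.0 FPKM in shTex10 and 63.2 and 68.0 FPKM in shLuci, with overlapping groups (log2 change -0.06, 95% confidence interval -0.30 to 0.18). The sign of Rpa3 turned positive under median scaling, quantile normalization, the rescaling over named genes and without shTex10 replicate 1. The interval of Rpa1 (-0.70 to -0.26) overlapped that of Rpa3 and that of Rpa2 (-1.07 to -0.53), while those of Rpa2 and Rpa3 lay apart. The difference between the 3 genes was not tested. Rpa2 was the highest of the 3 in both shLuci libraries and Rpa1 in both shTex10 libraries. The Rpa2 row spans mm9 chromosome 4, 132085501 to 132358121, a stretch that holds 7 other named genes.

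The clamp was the most abundant transcript of all members, and all 6 genes of the clamp and its loader lay below shLuci in both shTex10 libraries. Pcna (mm9 chromosome 2, 132075021 to 132078916), the ring that tethers the polymerases, measured 236 and 266 FPKM in shTex10, against 499 and 513 FPKM in shLuci, 49.6% of the shLuci mean (log2 change -1.01, SE 0.10, limma adjusted p = 0.000940). Of the 5 genes of replication factor C, which loads the clamp, 3 fell, against 31.8% of all genes. Rfc1, the large subunit, had a log2 change of -0.83 (SE 0.14), Rfc2 of -0.67 (SE 0.09) and Rfc5 of -0.57 (SE 0.09). The call of Rfc1 was lost with no filter on low values, and all 4 calls of the clamp and its loader after the rescaling over all rows. Rfc3 measured 41.4 and 49.5 FPKM in shTex10 and 53.4 and 60.9 FPKM in shLuci (log2 change -0.33, interval -0.63 to -0.02, limma adjusted p = 0.0724). Rfc4 measured 30.9 and 38.4 FPKM in shTex10 and 41.8 and 50.04 FPKM in shLuci (log2 change -0.40, interval -0.76 to -0.05, limma adjusted p = 0.0613). Both genes had their shTex10 libraries below their shLuci libraries. The loci of Rfc4 and Rfc5 hold other genes (Eif4a2 and Snora81, and Wsb2).

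Both genes that finish lagging-strand fragments fell. Fen1, the nuclease that cuts the displaced flap, measured 37.1 and 36.0 FPKM in shTex10, against 62.2 and 59.8 FPKM in shLuci (log2 change -0.72, SE 0.08, limma adjusted p = 0.00170). Lig1, the ligase that seals the nick, measured 66.8 and 65.1 FPKM in shTex10, against 100.9 and 101.6 FPKM in shLuci (log2 change -0.61, SE 0.08, limma adjusted p = 0.00264). In each gene the replicates lay close together and the groups far apart. The Lig1 locus also holds 6330408A02Rik.

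**Figure D5:**
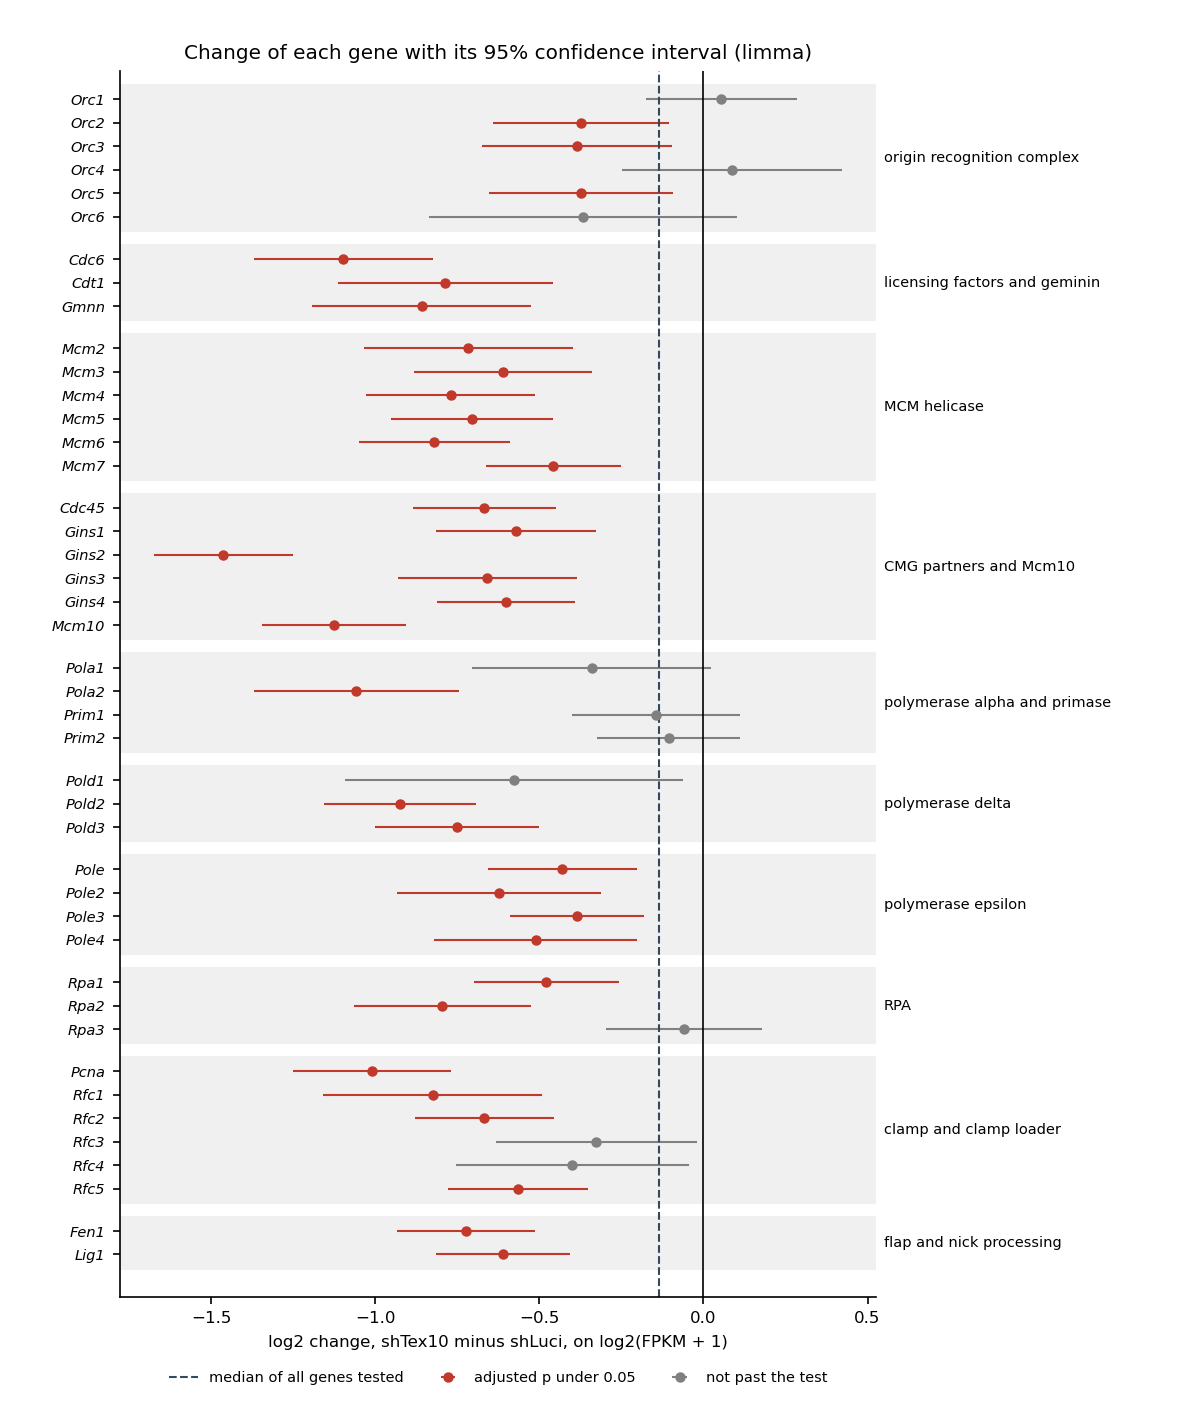
Log2 change of each of the 43 genes (shTex10 minus shLuci, points) with its 95% confidence interval from limma (bars), grouped by role; red marks adjusted p under 0.05 and grey genes not past the test, and the dashed line is the median of all genes tested at -0.14. Gins2 lies farthest left at -1.46, and the grey genes gather in the origin recognition complex and in polymerase alpha with primase.

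Genes that act around this core were described from 5 lists. Over all genes tested 31.8% fell and 19.8% rose, at a median log2 change of -0.14. Of 20 genes of origin firing and its control, 13 fell (65%), 1 rose (5%) and 6 did not pass, at a median of -0.45. Ccne1, the gene of cyclin E1 that drives entry into S phase, measured 26.5 and 25.1 FPKM in shTex10, against 87.5 and 85.3 FPKM in shLuci (log2 change -1.70, SE 0.09, limma adjusted p = 0.000198). Cdc25a, a phosphatase that activates cyclin-dependent kinases, measured 15.2 and 14.8 FPKM in shTex10, against 31.2 and 33.1 FPKM in shLuci. The gene that rose was Cul4b, a scaffold of a ubiquitin ligase that removes CDT1, with a log2 change of 0.72 (SE 0.12). It was named after its value was seen.

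The list of replisome and fork protection genes had 26 tested, at a median of -0.40. Of these 13 were lower (50%, against 31.8% of all genes), 1 was higher (3.8%, against 19.8%) and 12 were not past the test. The gene listed as 2810417H13Rik, which RefSeq gives as an older name of Pclaf, a PCNA-binding factor, measured 3.51 and 4.13 FPKM in shTex10, against 17.1 and 18.7 FPKM in shLuci (log2 change -1.97, SE 0.11, limma adjusted p = 0.000217). Rnaseh2a, the catalytic subunit of a ribonuclease that removes RNA from DNA, measured 27.01 and 27.10 FPKM in shTex10, against 48.7 and 45.2 FPKM in shLuci. The gene that rose was Pold4, the small subunit of polymerase delta, named after its value was seen, with 4.67 and 4.95 FPKM in shTex10, against 2.40 and 2.09 FPKM in shLuci (log2 change 0.84, SE 0.10).

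Of 7 genes of chromatin assembly at the fork, 6 fell (85.7%, against 31.8% of all genes), 0 rose (against 19.8%) and 1 did not pass. Their median was -0.87. Ssrp1, a subunit of the histone chaperone FACT, measured 73.2 and 68.4 FPKM in shTex10, against 150.2 and 149 FPKM in shLuci (log2 change -1.07, SE 0.09, limma adjusted p = 0.000555). Chaf1b, a subunit of chromatin assembly factor 1, measured 16.4 and 17.7 FPKM in shTex10, against 34.6 and 37.9 FPKM in shLuci.

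The translesion and repriming polymerases copy damaged templates or restart synthesis beyond them. Of the 8 in the test, 2 rose (25%, against 19.8% of all genes), 1 fell (12.5%, against 31.8%) and 5 did not pass, at a median of -0.16, against -0.14 over all genes. Rev1 measured 34.0 and 37.0 FPKM in shTex10, against 19.3 and 21.5 FPKM in shLuci (log2 change 0.77, SE 0.10, limma adjusted p = 0.00238). Polk, the gene of polymerase kappa, measured 14.5 and 16.6 FPKM in shTex10, against 6.79 and 8.33 FPKM in shLuci (log2 change 0.95, SE 0.13).

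Among 17 tested genes of E2F factors, their partners and pocket proteins, 10 fell, 3 rose and 4 did not pass, at a median of -0.55. The share that fell was 58.8%, against 31.8% of all genes. The share that rose was 17.6%, below the 19.8% of all genes. E2f3, an activating E2F factor, measured 5.54 and 5.41 FPKM in shTex10, against 14.8 in each shLuci library (log2 change -1.28, SE 0.09, limma adjusted p = 0.000351). E2f8, a repressive E2F factor, measured 5.52 and 6.43 FPKM in shTex10, against 17.9 and 19.0 FPKM in shLuci (log2 change -1.48, SE 0.11). The 3 that rose were Rb1, Rbl2 and E2f6, named after their values were seen, with log2 changes of 1.79, 0.75 and 0.54. Rb1 and Rbl2 encode pocket proteins that bind E2F factors, and E2f6 encodes a repressive E2F factor. Neither class rose as a whole. Rbl1, the other pocket protein gene of the list, fell (log2 change -0.55, SE 0.13), as did the repressive factor E2f8. E2f4 fell as well (log2 change -0.98, SE 0.09). Over the 5 lists together 43 of 78 tested genes fell and 7 rose, against 31.8% and 19.8% of all genes.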

How the data were processed

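RNA was measured by poly(A) sequencing with 100-base single-end reads, per the labels' protocols. Per the submitters' processing notes, the tools were Cufflinks 2.1.1, Bowtie2 2.1.0 and TopHat2 2.0.10, on build mm9. The sources used here do not give the gene annotation or any use of strand. The deposited tables, 1 per library, hold FPKM values made by the authors, per the file headers, for 30640 rows, of which 7329 had no gene name and stayed out of the tests. No read counts were used and depth is unknown, so no counting interval is given.

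Rows that share a name were summed, and 11883 of 22739 named genes with a mean of at least 1 FPKM were tested with limma 3.58.1 in R 4.3.3 on log2(FPKM + 1). Such changes understate those of low genes. An empirical Bayes trend was used, with Benjamini-Hochberg adjustment over all 11883 and a threshold of 0.05, after the procedure was tested on simulated data. An exact permutation test of 2 against 2 cannot go below 0.33. Samples were grouped by their labels, and 16 alternatives were tried.

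The members and gene lists were chosen with earlier results of these data known. All 43 were described by role, with values for those with the largest and smallest change in each role, those that rose and those that did not pass, and for the 2 genes with the smallest p in each other list; further genes were named after their values were seen. Tonsl, Atrip, Supt16h, Poln and Lin54 were listed but not analysed here.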

Additional observations from a re-analysis of the deposited data

How the results depend on the processing

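The 33 falls among the replication genes were 29 to 37 when 1 library was left out (29 without shTex10 replicate 1, 30 without shLuci replicate 2), against 27.7% to 29.2% of all genes. Those fits leave a group with 1 library, assumed to vary like the other group, and their spread comes almost wholly from that shared across genes, so these counts do not measure stability. They numbered 23 with no filter on low values, 30 under median scaling (26.8% of all genes), 25 under quantile normalization (24.5%), 25 after rescaling over named genes and 1 after rescaling over all rows. Outside the rescaling over all rows and the fits with 1 library left out, 19 members were called lower in every alternative. The share of all genes that met the same rule was not counted, so this number has no background to be read against. The members' median stayed below that of all genes throughout, by a difference of -0.61 with no filter and of -0.31 under quantile normalization at the ends of the range.

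Over all genes, 2378 of 22739 fell with no filter (10.5%). Of 11883 genes, 1906 fell after rescaling over named genes (16.0%) and 237 after rescaling over all rows (1.99%). With a mean of at least 5 FPKM, 3120 of 8542 fell (36.5%) and 1292 rose (15.1%), at a median log2 change of -0.20. All 43 members passed that filter and kept their calls. After rescaling over all rows 655 of 11883 genes rose (5.51%). Of the 78 tested genes in the lists around the core, 24 fell with no filter and 28 after rescaling over named genes. After rescaling over all rows 5 of the 78 fell and 1 rose. Among the members 1 rose after rescaling over named genes (Orc1, log2 change 0.27). The number of genes tested differed with the filter, and the errors were larger after the rescaling over all rows. With no filter the log2 changes of members stayed the same while their SEs moved. That of Cdt1 was 0.15 in place of 0.13, and that of Mcm7 0.03 in place of 0.08. Beyond these, the cause was not tested.

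Signs turned in members that did not pass. Rpa3 was at 0.01 (0.0096) under median scaling, 0.16 under quantile normalization, 0.17 after rescaling over named genes and 0.01 (0.0092) without shTex10 replicate 1. Prim1 was at 0.077 and 0.080 and Prim2 at 0.014 and 0.11 under quantile normalization and after rescaling over named genes. When 1 library was left out, Orc1 ranged from -0.013 to 0.12, Orc4 from -0.051 to 0.22 and Rpa3 from -0.13 to 0.0092; Orc1 was negative without shLuci replicate 1, and Orc4 without it (-0.024) and without shTex10 replicate 2.

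The replicate numbers are shared between the groups, but 2 pairs cannot show that they pair the libraries. Deviations of same-numbered libraries from their group means correlated at r = 0.33 across the 11883 genes and 0.93 across the 43 members, and genes are not independent replicates. With a replicate block, 39 members fell, against 48.0% of all genes (5709); Orc6, Pola1, Prim1, Pold1, Rfc3 and Rfc4 were gained. Depth is unknown for FPKM, and 2 libraries a group limit the precision.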
